A study of Mus musculus with 35 samples.

Results

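The 37 genes described here encode chaperones, folding enzymes, translocation and quality control proteins of the endoplasmic reticulum (ER), together with sensors of the unfolded protein response. They were taken from a list of mouse symbols by what the genes do, with no threshold on their values, although earlier results of these data were known when the list was made. All 37 were found among the 48709 genes of the count tables, and all 37 passed the filter on low counts, as did 13819 genes in total. RNA was measured in OT-I cytotoxic T lymphocytes (CTLs), CD8+ T cells of mice that carry a transgenic T cell receptor for an ovalbumin peptide. The study asked how an acidic medium changes the response of CTLs to interleukin-2 (IL-2), the cytokine that drives their growth. All cells had first been primed with antibodies to CD3 and CD28 and expanded in IL-2. The 0 h group was taken at that point. The other 6 groups were cultured for a further 24 h in medium at pH 7.4, pH 7 or pH 6.6, either without IL-2 or with 200 IU/mL of murine IL-2, and each of the 7 groups held 5 libraries, 35 in all. The medium was acidified with hydrochloric acid. The cells came from 1 transgenic strain and were expanded and acidified in vitro, outside any tissue.

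Secretory and membrane proteins enter the ER through the Sec61 translocon, lose their signal peptide, and are folded with the help of chaperones, lectins and disulfide isomerases. When unfolded proteins accumulate, the sensors IRE1 (gene Ern1), ATF6 and PERK are activated. IRE1 and ATF6 raise the production of chaperones, in part through the transcription factor XBP1. Proteins that fail to fold are returned to the cytosol and degraded, a process called ER-associated degradation. CTLs depend on this machinery for perforin, granzymes, cytokines and cell surface receptors.

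The total count on genes ranged from 16721319 to 34033340 per library, with a median of 24730020. The 7 T cell markers summed to between 3052 and 5073 CPM (counts scaled to a common library size) in every library. The B cell genes Ms4a1 and Pax5 were at 0 in all 35 libraries, and the B and plasma cell list, carried mainly by Prdm1, summed to between 7.57 and 43.2 CPM. One library stood apart, replicate 5 at 0 h, in which 48.3% of the tabulated reads had aligned to several places and were not counted, against 32.8% to 42.7% in the others. Counts of genes and values of single genes against 0 h are therefore given with and without it. Counts that set aside differences under 1 on the log2 scale, or that use other processing, include it.

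A reference for the list is the ER stress response element, or ERSE, the DNA element through which ATF6 and XBP1 act on chaperone genes. Its letters were searched on both strands of the RefSeq promoter windows (build GRCm38.p6, 250 bases before to 50 bases after the start of each gene), which were found for 29 of the 37 genes. The ERSE was written as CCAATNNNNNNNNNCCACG and ERSE-II as ATTGG, any 1 base, then CCACG. Both contain the CCAAT letters on one strand, which alone were in 21 of the 29 windows and in 41.1% of all windows. An ERSE was present in 8 of the 29 genes with a window and in 0.137% of 27025 genes overall. ERSE-II was present in 2 of the 29 and in 0.0444% overall. The unfolded protein response element, TGACGTGG, matched none of the 29 and 0.714% overall. The matches are printed because they mark which members carry the classical element. Capitals mark the element, each line reads 5′ to 3′ along the element, and the matches are letters in a window rather than tested binding sites. The stretches are short where they lie in an annotated exon.
Hspa5, chr2:34772020-34772048, + strand: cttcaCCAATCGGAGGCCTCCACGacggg
Hsp90b1, distal, chr10:86705618-86705676, - strand: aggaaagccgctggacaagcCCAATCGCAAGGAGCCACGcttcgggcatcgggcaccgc
Hsp90b1, proximal, chr10:86705513-86705571, + strand: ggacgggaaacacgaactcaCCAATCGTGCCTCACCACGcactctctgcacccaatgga
Calr, chr8:84847055-84847113, + strand: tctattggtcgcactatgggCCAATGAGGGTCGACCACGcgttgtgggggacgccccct
Canx, chr11:50325780-50325838, - strand: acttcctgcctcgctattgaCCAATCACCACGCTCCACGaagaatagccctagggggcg
Pdia6, chr12:17266471-17266529, + strand: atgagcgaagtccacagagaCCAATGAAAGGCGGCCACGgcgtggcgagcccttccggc
Creld2, chr15:88819500-88819558, - strand: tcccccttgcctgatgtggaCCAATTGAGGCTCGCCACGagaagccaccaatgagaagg
Dnajc3, chr14:118937807-118937865, + strand: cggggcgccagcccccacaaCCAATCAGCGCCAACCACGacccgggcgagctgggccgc
Syvn1, chr19:6046512-6046570, + strand: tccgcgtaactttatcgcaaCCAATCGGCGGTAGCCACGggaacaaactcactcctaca
Herpud1 (ERSE-II), chr8:94386357-94386407, + strand: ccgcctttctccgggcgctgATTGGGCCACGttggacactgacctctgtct
Dnajb11 (ERSE-II), chr16:22857843-22857871, + strand: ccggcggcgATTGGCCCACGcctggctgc

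Most of the ER genes were higher with IL-2 at pH 7.4, and their median difference with IL-2 was near 0 at pH 6.6. At pH 7.4, 32 of the 37 were higher with IL-2 than without it and 3 were lower, where 80.4% of all genes tested passed the threshold, with a median log2 fold change of 0.95 against -0.04 over all genes tested. At pH 6.6 the same comparison gave 3 higher and 1 lower, where 23.7% of all genes passed, with a median of 0.00. A fit restricted to the pH 6.6 groups called 14 of the 37, where 42.9% of all genes passed. Set against pH 7.4, pH 6.6 gave lower levels of most chaperones in the presence of IL-2 and higher levels of several of them, including Hspa5 and Hsp90b1, in its absence. Summed over the 37 genes, the level was 12767 ± 879 CPM at pH 7.4 with IL-2 and 4687 ± 309 CPM without it (mean ± SD, n = 5 each, as are all means below). The sums were 6852 ± 304 CPM at pH 6.6 with IL-2 and 7017 ± 408 CPM without it, and the ranges of these last groups overlapped. In bulk RNA, fewer cells of a type and less RNA per cell cannot be told apart. Unless stated otherwise, differences are log2 fold changes from edgeR's quasi-likelihood test over 13819 genes with Benjamini-Hochberg adjustment, and a gene counts as changed at an adjusted p below 0.05. Their standard error (SE) was derived as the absolute log2 fold change divided by the square root of the test's F statistic. The confidence intervals were built from this SE.

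**Figure D1:**
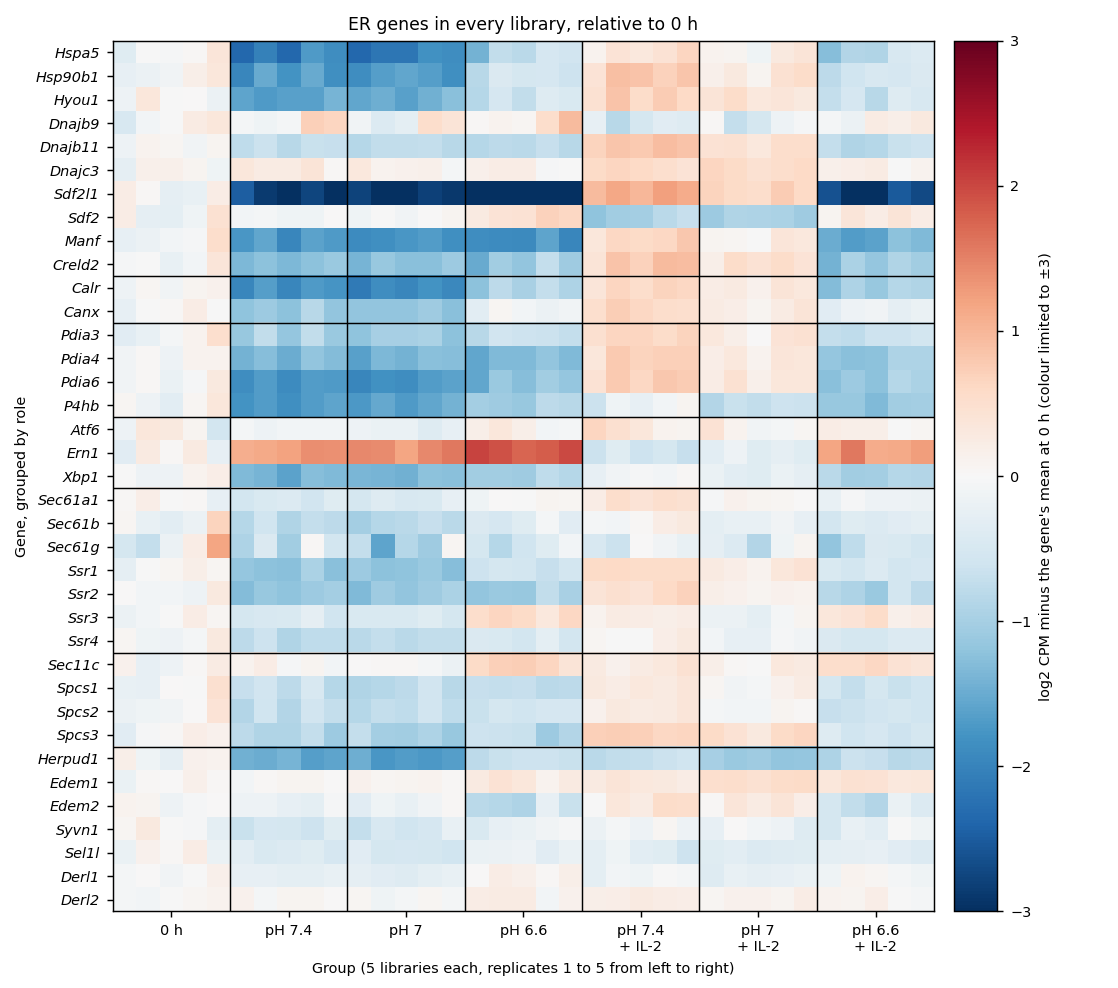
Each row is 1 of the 37 ER genes, grouped by role, and each column 1 of the 35 libraries, with colour for log2 CPM minus the gene's mean at 0 h. Most chaperones and isomerases are blue without IL-2 at pH 7.4 and pH 7 and mostly red with IL-2 at these pH values. The pH 6.6 blocks look alike for most rows, though Sdf2l1 is lowest at pH 6.6 without IL-2. Ern1 and Sdf2 are below their 0 h mean with IL-2 at pH 7.4 and pH 7.

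With IL-2 present, 4 of the 37 genes were higher and 25 were lower at pH 6.6 relative to pH 7.4, and 8 did not pass the threshold. Over all genes tested, 76.3% passed it, 35.4% higher and 40.9% lower, so the share of ER genes called was near the background and most of them were lower. Their median was -0.83, against -0.07 over all genes. In 24 genes every library at pH 6.6 lay below every library at pH 7.4, and in 3 every library lay above (33.1% and 26.2% of all genes). Under upper-quartile scaling, which shifted the median of all genes from -0.07 to 0.07, the counts were 8 higher and 24 lower (40.5% and 35.9% of all genes). With DESeq2 they were 7 higher and 24 lower (37.7% and 38.7%).

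Without IL-2, pH 6.6 gave 23 higher and 2 lower genes relative to pH 7.4, with a median of 0.31 against -0.03 over all genes. Of all genes, 67.0% passed the threshold, 31.6% higher and 35.4% lower. Upper-quartile scaling shifted the median of all genes to -0.15 and left 19 ER genes higher and 5 lower (24.8% and 41.8% of all genes). Comparing both calls, 14 of the 37 genes were lower at pH 6.6 with IL-2 and higher at pH 6.6 without it, a class that held 9.89% of all genes. Another 9 were lower with IL-2 and not called without it (13.1% of all genes), and 6 were higher without IL-2 and not called with it (5.83%). In both comparisons 3 were higher (15.9%) and 2, Sdf2l1 and Edem2, were lower (17.9%). The difference between the pH effects was itself tested as an interaction. It was negative in 31 genes and positive in 3, with a median of -1.04 against 0.04 over all genes, where 67.0% of genes passed the threshold, 34.3% positive and 32.8% negative.

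**Figure D2:**
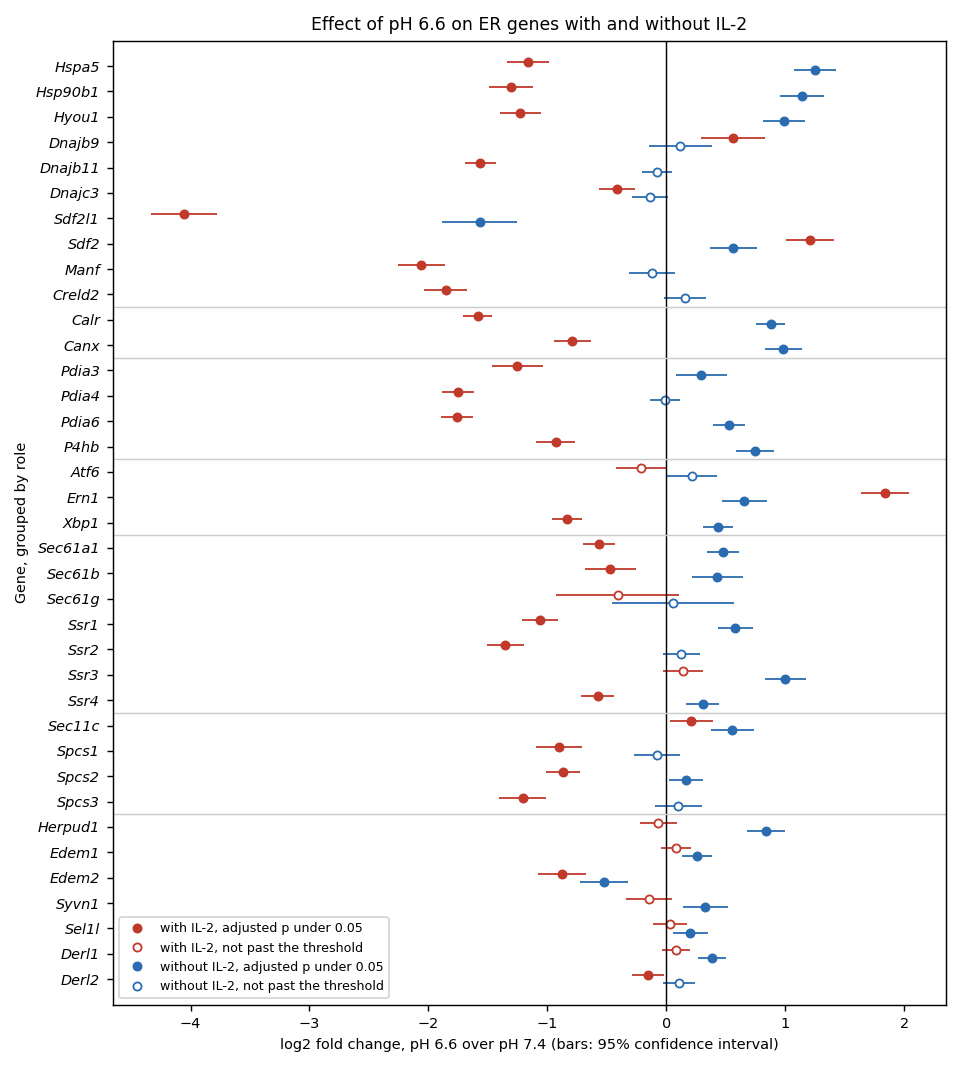
The horizontal axis is the log2 fold change of pH 6.6 over pH 7.4 for each ER gene, red with IL-2 and blue without, with 95% confidence intervals and filled points past the threshold. Red points lie mostly left of 0 and blue points mostly right of it, with Sdf2l1 far left at -4.06 in red and Ern1 far right at 1.84.

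Among the chaperones and their cofactors, 8 of 10 were lower and 2 higher at pH 6.6 with IL-2, against 40.9% and 35.4% of all genes. Hspa5 (chr2:34771970-34777547, GRCm38, + strand) encodes BiP, the main ATP-dependent chaperone of the ER lumen, which also binds the stress sensors. Its level in the 5 libraries was 1151, 1408, 1329, 1432 and 1657 CPM at pH 7.4 with IL-2 and 443, 580.4, 573, 765 and 797 CPM at pH 6.6 with IL-2. In the absence of IL-2, Hspa5 was 209, 263, 207, 329 and 295 CPM at pH 7.4 and 401, 639, 607, 754 and 713 CPM at pH 6.6. All libraries at pH 6.6 thus lay between those at pH 7.4 with and without IL-2, whether or not they had received IL-2. Hspa5 was 2.24-fold lower at pH 6.6 with IL-2 (log2 fold change -1.17, SE 0.087, adjusted p = 9.37e-14) and 2.38-fold higher without IL-2 (1.25, SE 0.088, adjusted p = 8.33e-14). IL-2 raised it 5.40-fold at pH 7.4, whereas at pH 6.6 the difference was 0.02 with a 95% confidence interval from -0.16 to 0.19.

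The remaining groups placed Hspa5 at 835, 1057, 1034, 1094 and 1382 CPM at 0 h, at 1139, 1121, 971, 1302 and 1391 CPM at pH 7 with IL-2, and at 209, 237, 238, 303 and 294 CPM at pH 7 without IL-2. With IL-2 the groups at pH 7 and pH 7.4 overlapped, and their difference of -0.23 did not pass the threshold (adjusted p = 0.056). Hsp90b1, the ER member of the HSP90 family, and Hyou1, a large HSP70 relative that exchanges nucleotide on BiP, had values like those of Hspa5, with -1.30 and -1.23 at pH 6.6 with IL-2 and 1.14 and 0.99 without. Of the exons of Hsp90b1, 10.3% are overlapped by a gene on the opposite strand.

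Sdf2l1 (chr16:17130138-17132383, - strand), a cofactor of the BiP and Dnajb11 chaperone complex, showed the largest difference of the list. With IL-2 it was at 93.4, 108, 97.6, 113 and 105 CPM at pH 7.4, at 77.2, 72.4, 69.7, 82.9 and 73.4 CPM at pH 7, and at 7.86, 5.04, 3.23, 8.43 and 7.37 CPM at pH 6.6. In cultures without IL-2, Sdf2l1 was at 8.72, 6.56, 5.80, 7.09 and 5.82 CPM at pH 7.4, at 7.05, 5.31, 4.47, 6.85 and 6.49 CPM at pH 7, and at 2.61, 2.55, 1.59, 2.41 and 2.25 CPM at pH 6.6. The groups at pH 6.6 did not overlap those at pH 7.4 in either medium. At 0 h the values were 56.5, 50.0, 40.5, 41.5 and 56.6 CPM. Relative to pH 7.4, Sdf2l1 was 16.6-fold lower at pH 6.6 with IL-2 (log2 fold change -4.06, SE 0.14, adjusted p = 5.98e-22) and was also lower without IL-2 (-1.57, SE 0.15, adjusted p = 1.76e-10). IL-2 still raised it at pH 6.6, 2.73-fold (1.45, SE 0.16, adjusted p = 1.67e-08), against 15.3-fold at pH 7.4.

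The 250 bases before the start of Sdf2l1 (chr16:17132384-17132633, GRCm38.p6, - strand) hold no complete ERSE or ERSE-II. They are printed because this gene moved furthest, with the 3 CCAAT and 3 CCACG letters on either strand in capitals.
Sdf2l1: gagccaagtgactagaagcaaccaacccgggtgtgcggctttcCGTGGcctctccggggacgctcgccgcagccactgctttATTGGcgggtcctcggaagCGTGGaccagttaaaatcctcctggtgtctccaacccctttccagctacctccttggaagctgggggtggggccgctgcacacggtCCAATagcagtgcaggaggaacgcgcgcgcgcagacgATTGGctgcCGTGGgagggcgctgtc

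Sdf2, the paralogue of Sdf2l1, was higher rather than lower at pH 6.6. With IL-2, Sdf2 was at 32.1, 35.7, 36.8, 42.1 and 46.2 CPM at pH 7.4 and at 78.2, 95.6, 86.3, 96.4 and 86.0 CPM at pH 6.6, without overlap. Its log2 fold change was 1.21 (SE 0.10, adjusted p = 1.06e-12), and it was 0.56 without IL-2 (adjusted p = 7.45e-06). IL-2 lowered it at pH 7.4 (-0.87) and at pH 7 (-0.96). Of its exons, 15.97% are overlapped by Supt6 on the opposite strand.

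Manf, a small protein that binds BiP and can be secreted, was at 181, 218, 213, 221 and 251 CPM at pH 7.4 with IL-2 and at 51.1, 44.9, 46.5, 60.6 and 57.3 CPM at pH 6.6 with IL-2. In medium lacking IL-2, Manf was at 42.6, 48.2, 36.5, 47.0 and 44.0 CPM at pH 7.4 and at 39.2, 38.8, 38.1, 47.7 and 36.7 CPM at pH 6.6. It fell by 2.06 with IL-2 (SE 0.097, adjusted p = 8.90e-19), while the groups without IL-2 overlapped (-0.12, adjusted p = 0.257). At pH 7 Manf was at 152, 148, 141, 182 and 178 CPM with IL-2 and at 38.7, 39.6, 42.3, 44.3 and 39.5 CPM without it. At 0 h it was at 121, 127, 134, 140.0 and 206 CPM, the last being the library with the largest share of multiply aligned reads.

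Creld2, an ER stress gene of the lumen, and Dnajb11, a J-domain partner of BiP, fell by 1.85 and 1.56 at pH 6.6 with IL-2, but were at 0.16 and -0.08 without IL-2, which did not pass the threshold. Dnajc3, another J-domain cofactor of BiP, fell by 0.41 with IL-2. Dnajb9, the J-domain protein that directs BiP to IRE1, rose by 0.56 (SE 0.13, adjusted p = 0.000351) with IL-2, from 10.00 to 15.2 CPM at pH 7.4 to between 15.8 and 22.1 CPM at pH 6.6. IL-2 lowered it at pH 7.4 (-0.69).

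**Figure D3:**
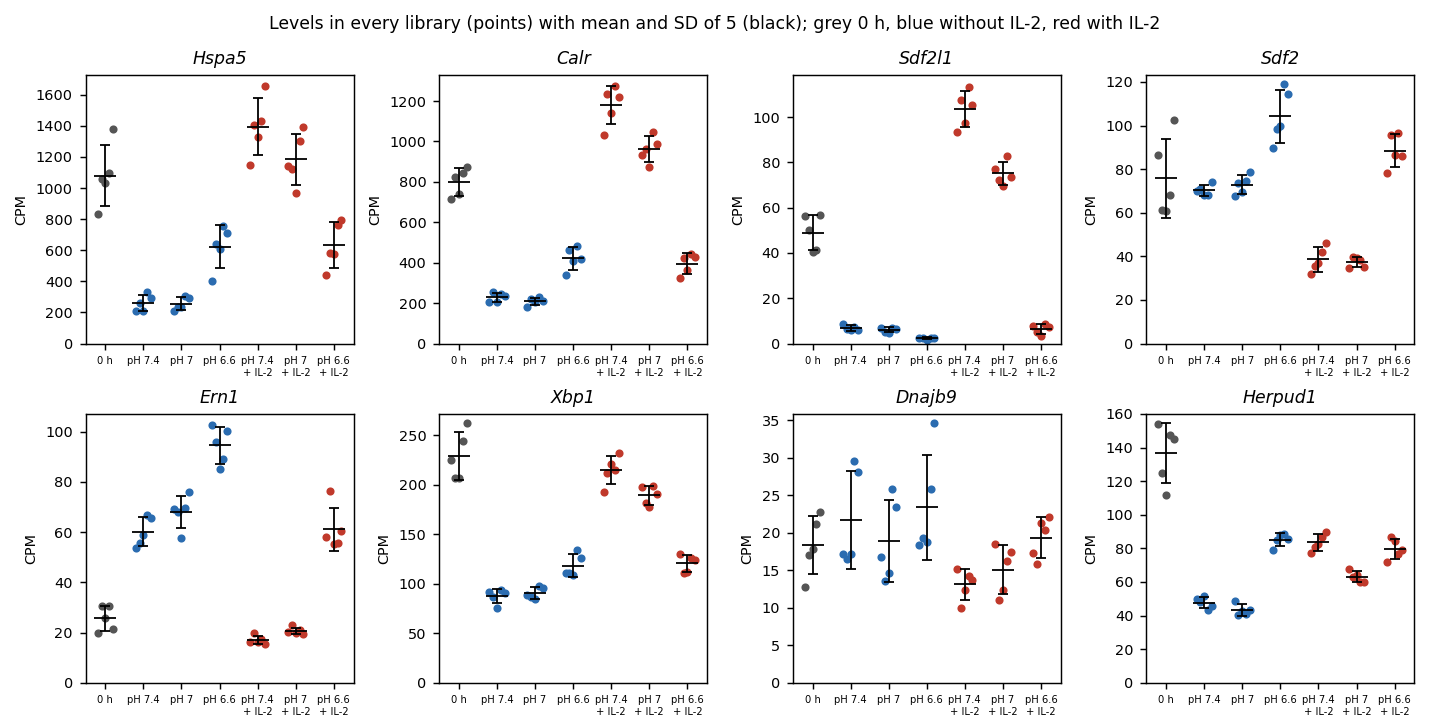
Points are the CPM of 8 genes in each of the 35 libraries, with the mean and SD of the 5 libraries of a group in black, on linear axes that start at 0. Hspa5, Calr and Xbp1 fall into a high group with IL-2 at pH 7.4 and pH 7, a low group without IL-2 at these pH values, and an intermediate level at pH 6.6, while Sdf2 and Ern1 are lowest with IL-2 at pH 7.4 and pH 7.

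Both lectin chaperones, which hold newly made glycoproteins in the ER until they fold, were lower at pH 6.6 with IL-2 and higher without it. Of all genes, 40.9% were lower with IL-2 and 31.6% higher without it. Calr (calreticulin, soluble) was at 1034, 1237, 1142, 1274 and 1219 CPM at pH 7.4 with IL-2 and at 324, 421, 362, 444 and 426 CPM at pH 6.6 with IL-2. The libraries without IL-2 had Calr at 204, 255, 206, 247 and 233 CPM at pH 7.4 and at 338, 462, 408, 484 and 419.5 CPM at pH 6.6. The pH 6.6 groups overlapped each other and neither pH 7.4 group. Its log2 fold changes were -1.58 with IL-2 (SE 0.060, adjusted p = 5.69e-21) and 0.88 without (SE 0.059, adjusted p = 3.16e-14), and the interaction was -2.46. In the other groups Calr was at 716, 825, 739, 845 and 875 CPM at 0 h, at 935, 962, 875, 1046 and 989.6 CPM at pH 7 with IL-2, and at 183, 218, 204, 230.1 and 209.9 CPM at pH 7 without it.

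Canx (calnexin, membrane-bound) was at 854, 1006, 927, 869 and 855 CPM at pH 7.4 with IL-2 and at 479, 545, 556, 501 and 528 CPM at pH 6.6 with IL-2. Without IL-2 the values were 259, 285, 255, 339 and 266 CPM at pH 7.4 and 487, 626, 567, 533 and 562 CPM at pH 6.6. Canx fell by 0.79 with IL-2 (SE 0.077) and rose by 0.98 without (SE 0.078). It was at 507, 600.1, 621, 706 and 597 CPM at 0 h, at 714, 691, 635, 717 and 790.4 CPM at pH 7 with IL-2, and at 266, 265, 264, 289 and 254 CPM at pH 7 without it. In both lectins the libraries at pH 7 without IL-2 overlapped those at pH 7.4 without IL-2.

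All 4 disulfide isomerases, which form and rearrange disulfide bonds, were lower at pH 6.6 with IL-2, and 3 of the 4 were higher without IL-2. The shares over all genes were 40.9% lower with IL-2 and 31.6% higher without it. Pdia6 was at 277, 353, 314, 356 and 346 CPM at pH 7.4 with IL-2 and at 85.9, 96.1, 86.8, 113 and 106 CPM at pH 6.6 with IL-2. In the absence of IL-2, Pdia6 was at 56.2, 63.9, 55.3, 63.9 and 62.6 CPM at pH 7.4 and at 69.6, 93.7, 84.0, 98.9 and 90.8 CPM at pH 6.6. The groups separated in both comparisons, with -1.76 (SE 0.066, adjusted p = 6.12e-21) and 0.53 (SE 0.065, adjusted p = 2.03e-08). Pdia6 was at 191, 208, 178, 200.0 and 251 CPM at 0 h, at 238, 281, 228, 259.7 and 259.6 CPM at pH 7 with IL-2, and at 52.2, 57.9, 56.4, 63.6 and 67.4 CPM at pH 7 without it.

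Pdia4 was at 214, 290.1, 265, 277 and 277 CPM at pH 7.4 with IL-2 and at 75.1, 70.2, 71.3, 88.9 and 87.6 CPM at pH 6.6 with IL-2. In cultures without IL-2, Pdia4 was at 63.2, 69.0, 59.5, 73.3 and 68.2 CPM at pH 7.4 and at 57.0, 66.5, 66.8, 73.4 and 67.4 CPM at pH 6.6. It fell by 1.75 with IL-2 (SE 0.064, adjusted p = 3.22e-21), and without IL-2 its groups overlapped (-0.01, 95% confidence interval from -0.14 to 0.12). Pdia4 was at 156, 171, 151, 180.4 and 182 CPM at 0 h, at 194, 208, 179.9, 215 and 212 CPM at pH 7 with IL-2, and at 54.5, 65.6, 62.5, 70.3 and 69.0 CPM at pH 7 without it. Pdia3, the isomerase that works with the lectins, was at -1.25 with IL-2 and 0.30 without, and P4hb, the canonical protein disulfide isomerase, at -0.93 and 0.75.

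The sensors and the transcription factor XBP1 divided. Ern1 (chr11:106394650-106487852, - strand) encodes IRE1, the kinase and endonuclease that splices Xbp1 mRNA. At pH 6.6 it rose with IL-2, where most chaperones fell, and also without IL-2, where Hspa5 and Hsp90b1 rose as well. With IL-2, Ern1 was at 16.3, 19.8, 16.3, 17.5 and 15.6 CPM at pH 7.4, at 20.2, 22.9, 19.7, 20.9 and 19.5 CPM at pH 7, and at 58.0, 76.2, 55.1, 55.8 and 60.3 CPM at pH 6.6. In medium lacking IL-2, Ern1 was at 53.7, 55.9, 59.0, 66.9 and 65.5 CPM at pH 7.4, at 69.1, 68.0, 57.7, 69.5 and 75.9 CPM at pH 7, and at 103, 96.0, 85.2, 89.2 and 100.2 CPM at pH 6.6. Every library at pH 6.6 was above every library at pH 7.4 in the same medium, and the 0 h libraries were at 19.99, 30.6, 25.9, 30.8 and 21.5 CPM. Ern1 was 3.57-fold higher at pH 6.6 with IL-2 (log2 fold change 1.84, SE 0.099, adjusted p = 2.33e-17) and rose by 0.65 without IL-2 (SE 0.093, adjusted p = 2.84e-07). IL-2 lowered it at every pH, with log2 fold changes of -1.82 at pH 7.4, -1.72 at pH 7 and -0.64 at pH 6.6 (SE 0.093, adjusted p = 3.96e-06).

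Xbp1 itself followed the chaperones, at 193, 212, 221, 215 and 232 CPM at pH 7.4 with IL-2 and at 130.3, 111, 112, 126 and 123 CPM at pH 6.6 with IL-2. The libraries without IL-2 had Xbp1 at 91.2, 87.0, 75.2, 93.3 and 90.5 CPM at pH 7.4 and at 111, 111, 109, 134 and 126 CPM at pH 6.6. It fell by 0.83 with IL-2 (SE 0.061, adjusted p = 4.62e-14) and rose by 0.44 without (SE 0.061, adjusted p = 1.97e-07), without overlap in either comparison. At 0 h it was at 225, 206, 207, 244 and 262 CPM, and at pH 7 it was at 197, 182, 178, 199 and 190.5 CPM with IL-2 and at 88.5, 87.1, 84.1, 97.3 and 96.0 CPM without it. Counts per gene do not separate spliced from unspliced Xbp1 mRNA, so they do not measure IRE1 activity.

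Atf6, the sensor that is cleaved in the Golgi apparatus to release a transcription factor, passed the threshold in neither pH comparison. It was at 76.0, 67.0, 61.6, 52.0 and 51.2 CPM at pH 7.4 with IL-2 and at 56.2, 54.3, 54.3, 48.0 and 50.6 CPM at pH 6.6 with IL-2. In the absence of IL-2, Atf6 was at 46.0, 43.2, 45.3, 45.8 and 45.5 CPM at pH 7.4 and at 54.7, 61.5, 54.7, 45.9 and 46.6 CPM at pH 6.6. These groups overlapped, with -0.22 (95% confidence interval from -0.43 to 0.00, adjusted p = 0.0591) and 0.21 (from 0.00 to 0.42, adjusted p = 0.0708). Atf6 was at 43.8, 60.8, 59.0, 50.9 and 32.9 CPM at 0 h, at 64.7, 51.8, 45.1, 46.0 and 50.2 CPM at pH 7 with IL-2, and at 43.7, 41.7, 42.1, 36.7 and 40.7 CPM at pH 7 without it. IL-2 raised it at pH 7.4 by 0.43 (SE 0.10, adjusted p = 0.00034).

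Of the 7 translocon and TRAP genes, 5 were lower at pH 6.6 with IL-2 and 5 were higher without IL-2. Over all genes, 40.9% were lower with IL-2 and 31.6% higher without it. Sec61 forms the channel, and the TRAP complex, encoded by the Ssr genes, sits beside it. Ssr2 was at 127, 135, 128, 145 and 155 CPM at pH 7.4 with IL-2 and at 53.9, 50.8, 44.6, 65.5 and 55.8 CPM at pH 6.6 with IL-2. In cultures without IL-2, Ssr2 was at 39.0, 44.0, 41.8, 45.5 and 47.4 CPM at pH 7.4 and at 42.7, 44.9, 43.8, 57.5 and 49.4 CPM at pH 6.6. The first comparison separated completely (-1.35, SE 0.076, adjusted p = 7.95e-17) and the second overlapped (0.13, adjusted p = 0.143). Ssr2 was at 97.8, 91.8, 90.4, 87.4 and 117 CPM at 0 h, at 109, 105, 103, 106 and 103 CPM at pH 7 with IL-2, and at 38.5, 45.9, 42.1, 46.2 and 49.8 CPM at pH 7 without it. An annotated gene on the opposite strand overlaps 12.8% of its exons.

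Ssr1 was at 384, 388, 373, 374 and 374 CPM at pH 7.4 with IL-2 and at 186, 175, 192, 174 and 180.3 CPM at pH 6.6 with IL-2. In medium lacking IL-2, Ssr1 was at 114, 109.9, 108, 133 and 107 CPM at pH 7.4 and at 168, 178, 175, 159 and 175 CPM at pH 6.6. It fell by 1.06 (SE 0.073) with IL-2 and rose by 0.58 (SE 0.073) without, and no groups overlapped in either comparison. Ssr1 was at 211, 255, 267, 289 and 267 CPM at 0 h, at 310.2, 296, 277, 326 and 345 CPM at pH 7 with IL-2, and at 120.3, 108, 111, 118 and 106 CPM at pH 7 without it.

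Ssr3 differed from the other TRAP subunits. At pH 6.6 it was not lower with IL-2 (0.14, 95% confidence interval from -0.03 to 0.31) and rose by 1.00 without IL-2 (SE 0.084, adjusted p = 4.68e-12). Sec61a1 and Sec61b fell by 0.57 and 0.47 with IL-2 and rose by 0.48 and 0.43 without. Ssr4 fell by 0.58 and rose by 0.31. Sec61g stayed between 0.470 and 3.63 CPM in all 35 libraries and passed the threshold in neither comparison. Pseudogenes share part of the sequence of Sec61g and Sec61b, so that 85.2% and 82.6% of their 50-base windows are unique, and their counts are uncertain.

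Signal peptidase, which cleaves the signal peptide during entry, had 3 of 4 subunits lower and 1 higher at pH 6.6 with IL-2 (40.9% and 35.4% of all genes). Spcs3 was at 304, 310.3, 307, 286 and 291 CPM at pH 7.4 with IL-2 and at 143, 124, 131, 121 and 129.8 CPM at pH 6.6 with IL-2. The libraries without IL-2 had Spcs3 at 109, 99.4, 99.4, 114 and 88.0 CPM at pH 7.4 and at 122, 119, 116, 88.0 and 101 CPM at pH 6.6. It fell by 1.21 (SE 0.097, adjusted p = 4.91e-13) with IL-2, and its groups without IL-2 overlapped (0.10, adjusted p = 0.360). Spcs3 was at 147, 183, 191, 216 and 204 CPM at 0 h, at 277, 252, 229.9, 278 and 291 CPM at pH 7 with IL-2, and at 113, 92.4, 91.2, 98.3 and 84.5 CPM at pH 7 without it.

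Spcs1 was at 111, 107, 113, 111 and 118 CPM at pH 7.4 with IL-2 and at 63.1, 55.8, 63.1, 57.4 and 60.0 CPM at pH 6.6 with IL-2. In the absence of IL-2, Spcs1 was at 57.0, 61.8, 53.3, 66.0 and 50.2 CPM at pH 7.4 and at 56.6, 55.7, 56.2, 51.8 and 53.1 CPM at pH 6.6. It fell by 0.90 with IL-2 (SE 0.094, adjusted p = 2.65e-10) and was at -0.08 without, with overlapping groups. Spcs1 was at 78.1, 77.4, 91.5, 90.6 and 128 CPM at 0 h, at 94.6, 84.7, 87.2, 101 and 108 CPM at pH 7 with IL-2, and at 48.9, 50.5, 52.7, 61.7 and 51.3 CPM at pH 7 without it. Of its exons, 16.3% are overlapped by Glt8d1 on the opposite strand. Spcs2 fell by 0.87 with IL-2, and Sec11c, a catalytic subunit, rose by 0.21 with IL-2 (adjusted p = 0.0336, overlapping groups) and by 0.56 without.

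The 7 genes of ER-associated degradation had the group median closest to 0, at -0.07. At pH 6.6 with IL-2, 2 of them were lower, against 40.9% of all genes. Edem2, a lectin-like protein that starts the trimming of mannose from misfolded glycoproteins, was at 53.6, 69.1, 64.2, 80.0 and 78.2 CPM at pH 7.4 with IL-2 and at 37.5, 32.7, 29.5, 47.4 and 40.9 CPM at pH 6.6 with IL-2. In cultures without IL-2, Edem2 was at 48.4, 48.5, 45.6, 43.9 and 52.7 CPM at pH 7.4 and at 31.1, 29.8, 28.3, 45.4 and 33.96 CPM at pH 6.6. Edem2 fell in both, by 0.88 (SE 0.099, adjusted p = 1.17e-09) without overlap and by 0.52 (SE 0.099, adjusted p = 2.68e-05) with overlap through 1 library at pH 6.6. It was at 58.7, 56.9, 48.6, 52.6 and 54.5 CPM at 0 h, at 56.0, 69.8, 63.9, 70.7 and 62.2 CPM at pH 7 with IL-2, and at 43.1, 49.9, 46.3, 50.7 and 55.2 CPM at pH 7 without it.

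Derl2, one of the derlins of the retrotranslocation channel, was at 73.1, 74.6, 78.4, 75.1 and 74.5 CPM at pH 7.4 with IL-2 and at 69.4, 68.6, 74.0, 63.6 and 62.1 CPM at pH 6.6 with IL-2. In medium lacking IL-2, Derl2 was at 70.8, 62.0, 68.6, 68.9 and 64.9 CPM at pH 7.4 and at 75.4, 76.5, 77.0, 61.2 and 70.9 CPM at pH 6.6. The groups overlapped in both comparisons, and -0.15 with IL-2 passed the threshold (adjusted p = 0.0337) while 0.11 without IL-2 did not. At 0 h it was at 61.6, 61.0, 64.3, 67.0 and 69.6 CPM, and at pH 7 it was at 67.5, 70.6, 70.9, 68.2 and 76.0 CPM with IL-2 and at 67.3, 59.0, 61.9, 67.8 and 62.1 CPM without it.

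Herpud1, a membrane protein that organises the degradation complex, showed no difference at pH 6.6 with IL-2 that passed the threshold (-0.07, 95% confidence interval from -0.22 to 0.09), yet was lower at pH 7 (-0.40, SE 0.08, adjusted p = 0.00047). Its means were 83.5 ± 4.80 CPM at pH 7.4, 63.1 ± 3.21 CPM at pH 7 and 79.7 ± 6.08 CPM at pH 6.6 with IL-2. Without IL-2 they were 47.7 ± 3.30, 43.2 ± 3.42 and 85.3 ± 3.84 CPM, and pH 6.6 was higher than pH 7.4 in every library (0.84, SE 0.079, adjusted p = 6.61e-11). Edem1, Syvn1 (the ubiquitin ligase), Sel1l (its adaptor) and Derl1 lay between -0.14 and 0.08 at pH 6.6 with IL-2, none past the threshold, and rose by 0.26, 0.33, 0.20 and 0.39 without IL-2.

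Per kilobase of annotated exon, the order of the means of the most abundant members differed between conditions. Among the genes named here, no pair that changed places differed beyond its spread in both conditions. At pH 7.4 with IL-2 the highest were Pdia3 (458 ± 23.6 CPM per kilobase), Calr (410.2 ± 33.1), Hsp90b1 (394 ± 51.5) and Hspa5 (330.0 ± 43.3), of which Calr and Hsp90b1 differed by less than their spread, and the other neighbours by more than either SD. At pH 6.6 with IL-2 the same scale gave Pdia3 192 ± 10.8, Hsp90b1 160 ± 14.9, Hspa5 149 ± 34.8 and Calr 137 ± 17.6, of which Hspa5 differed from Hsp90b1 and from Calr by less than its SD. Hsp90b1 and Calr, and Pdia3 and Hsp90b1, differed by more than either SD. Sec61g and Ern1 were the lowest at pH 7.4 with IL-2, at 0.52 and 2.09 CPM per kilobase. The counts of Sec61g are uncertain because pseudogenes share part of its sequence, and its place in this order is therefore uncertain too.

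With IL-2, a milder acidification to pH 7 gave a smaller median difference, and most of the genes called were lower. Herpud1, Ssr3 and Edem1 passed the threshold at pH 7 but not at pH 6.6. In all, 2 ER genes were higher (Ern1, 0.27, and Edem1, 0.22) and 21 lower at pH 7 relative to pH 7.4, where 19% of all genes passed the threshold, 9.15% higher and 9.83% lower. The median of the ER genes was -0.26, against -0.01 over all genes. In 1 gene (Edem1) every library was above and in 12 every library was below those at pH 7.4, against 4.57% and 8.63% of all genes. The lowest was P4hb at -0.52 (SE 0.08, adjusted p = 2.45e-05), followed by Sdf2l1 at -0.47 and Manf at -0.44. Leaving out replicate 3 in every group reduced the number called from 23 to 15, of which 14 were lower, and the share of all genes from 19% to 9.24%. Without IL-2, none of the 37 passed the threshold in edgeR's test or in DESeq2, 1 of them (Calr, -0.13) had an unadjusted p below 0.05, and 1.68% of all genes passed, 1.36% higher and 0.318% lower. The 95% confidence intervals of the 37 genes reached from -0.79 to 0.36.

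The effect of IL-2 was tested at each pH. At pH 7.4, 80.4% of all genes passed the threshold, 39.3% higher with IL-2 and 41.1% lower, beside 32 ER genes higher and 3 lower. Upper-quartile scaling moved the median of all genes from -0.04 to -0.27 and gave 26 ER genes higher and 4 lower; the ER median stayed 1.00 above that of all genes. The largest increases after Sdf2l1 (3.94) were Hsp90b1 (2.46), Pdia6 (2.44) and Hspa5 (2.43). Ern1 (-1.82), Sdf2 (-0.87) and Dnajb9 (-0.69) were lower with IL-2, and Sec61g and Sel1l did not pass the threshold. For Sel1l, Derl1 and Derl2, at 0.07, 0.16 and 0.16, the sign depended on the scaling, being negative under upper-quartile scaling. At pH 7, 30 ER genes were higher and 3 lower with IL-2, where 77.2% of all genes passed, 37.6% higher and 39.5% lower, and the median was 0.71 against -0.04.

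At pH 6.6, 23.7% of all genes passed the threshold for IL-2, 13.2% higher and 10.6% lower, against 4 of the 37 ER genes. These were Sdf2l1 (1.45), Manf (0.37, SE 0.095, adjusted p = 0.00425), Pdia4 (0.25, SE 0.063, adjusted p = 0.00398) and Ern1 (-0.64). The other 33 lay between -0.24 and 0.25, with 95% confidence intervals that reached from -0.70 to 0.44. The number depended on the method, being 7 with DESeq2 (25% of all genes) and 14 (10 higher and 4 lower) when only the pH 6.6 groups entered the fit. In that last fit 42.9% of all genes passed, so the share of ER genes was near the background there. With differences under 1 on the log2 scale set aside in either direction, the pH 6.6 comparisons kept 16 ER genes with IL-2 (34.4% of all genes) and 4 without it (20.5%), and the pH 7 comparisons kept none with IL-2 (1.47%) or without it (0.449%). The same condition left 18, 17 and 1 genes for IL-2 at pH 7.4, pH 7 and pH 6.6 (40.9%, 35.6% and 3.73% of all genes) and 20 for the interaction (33.9%). Against 0 h it left 1 gene at pH 7.4 with IL-2 (15.1%), 16 at pH 7.4 without IL-2 (30.4%), and 8 when pH 6.6 was combined with IL-2 (22.7%). In 20 of the 37 genes the means at pH 6.6 with and without IL-2 both lay between the means at pH 7.4 with and without IL-2, as they did in 35.7% of all genes.

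**Figure D4:**
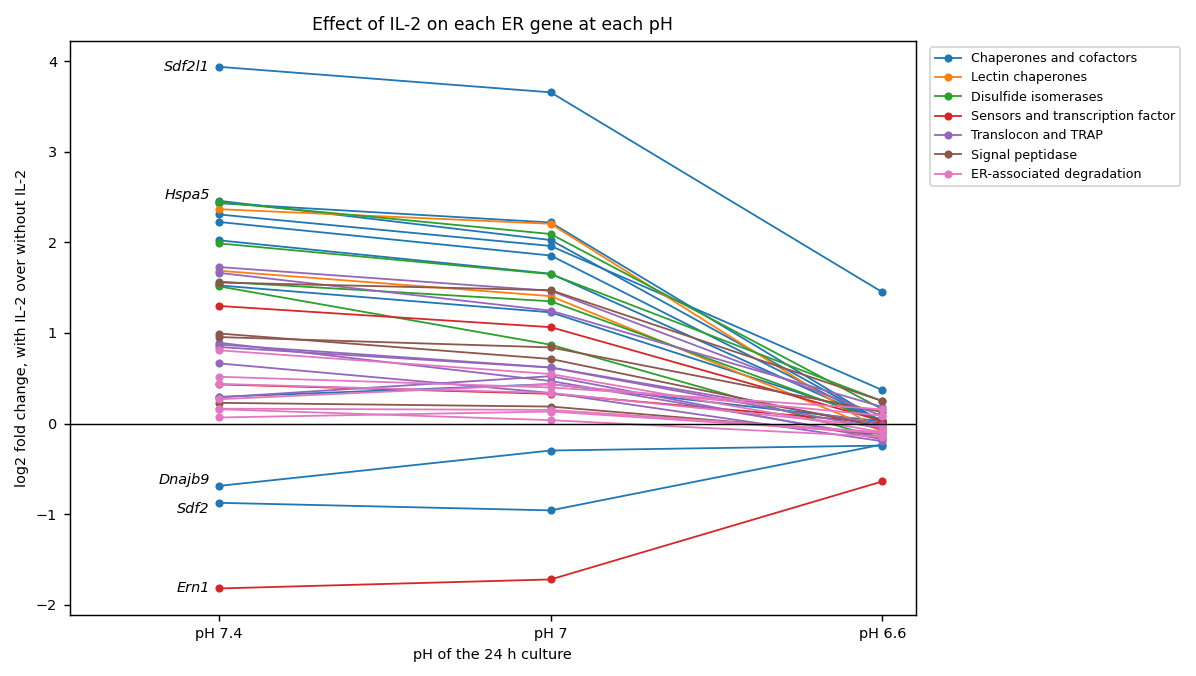
Each line is 1 ER gene, with the log2 fold change of IL-2 over no IL-2 on the vertical axis and the pH of the culture on the horizontal axis, coloured by role. The lines spread from -1.82 to 3.94 at pH 7.4 and narrow to between -0.64 and 1.45 at pH 6.6, where Sdf2l1 and Ern1 remain furthest from 0.

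Relative to the cells at 0 h, which had been growing in IL-2, the ER genes diverged. After 24 h at pH 7.4 with IL-2, 25 were higher and 6 lower (59.9% of all genes passed, 29% higher and 30.9% lower), with a median of 0.31. After 24 h at pH 7.4 without IL-2, 2 were higher and 28 lower (75.2% passed, 36.9% higher and 38.3% lower), with a median of -0.77. After 24 h at pH 6.6 with IL-2, 5 were higher and 27 lower (68.5% passed, 30.5% higher and 38% lower), with a median of -0.55. These 3 comparisons share the 0 h libraries. Without replicate 5 at 0 h the counts were 26 and 5, 2 and 28, and 5 and 26, with medians of 0.37, -0.70 and -0.48. The shares of all genes were then 29.4% and 29.8%, 36.3% and 37.3%, and 30.5% and 36.6%. In the first comparison, upper-quartile scaling with all libraries gave 18 higher and 10 lower (20.6% and 41.3% of all genes).

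Hspa5 was at 0.38, -2.05 and -0.79 in these 3 comparisons, Sdf2l1 at 1.09, -2.85 and -2.97, Calr at 0.56, -1.80 and -1.02, and Ern1 at -0.59, 1.23 and 1.25. Herpud1 was below its 0 h level in each of them, at -0.71, -1.52 and -0.77. Xbp1 was close to its 0 h level at pH 7.4 with IL-2 (-0.09, adjusted p = 0.21) and lower in the other two (-1.39 and -0.92). P4hb was at -0.20, -1.72 and -1.14. Without replicate 5 at 0 h, P4hb at pH 7.4 with IL-2 came to -0.15 and no longer passed the threshold (adjusted p = 0.101), with -1.67 and -1.08 in the other comparisons. Hspa5 was then at 0.42, -2.02 and -0.75, Sdf2l1 at 1.15, -2.80 and -2.90, Calr at 0.59, -1.78 and -0.99, and Ern1 at -0.64, 1.17 and 1.19. Herpud1 was at -0.68, -1.49 and -0.74, and Xbp1 at -0.043, -1.35 and -0.88. At pH 7.4 with IL-2, Atf6 also lost the threshold without that library, and Sec61b and Ssr4 gained it. At pH 7.4 without IL-2, Atf6 gained it and Sec61g lost it, as Sec61g did at pH 6.6 with IL-2.

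The 10 genes with an ERSE or ERSE-II in their window were compared with the others as a description, since they were few and the elements were searched with the results known. At pH 6.6 with IL-2, 8 of these 10 were lower and none higher, with a median of -1.23 and a range from -1.85 (Creld2) to -0.07 (Herpud1). Among the 19 genes whose window held no element, 12 were lower and 3 higher, with a median of -0.58. Without IL-2, 7 of the 10 were higher and none lower (median 0.68), against 12 higher and 2 lower of the 19 (median 0.26). At pH 7.4, IL-2 raised all 10, with a median of 1.85, and 14 of the 19, with a median of 0.84. Over all genes tested, 40.9% were lower and 35.4% higher at pH 6.6 with IL-2, and 31.6% higher and 35.4% lower without it. For IL-2 at pH 7.4, 39.3% of all genes were higher. Both sets overlapped widely, and Sdf2l1, Pdia4 and Xbp1 were among the genes with a window and no element.

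Related genes outside the list were counted in lists written from general knowledge, with 40.9% of all genes lower and 35.4% higher at pH 6.6 with IL-2 as the background. All 12 subunits tested of the oligosaccharyltransferase, which attaches glycans to proteins entering the ER, were lower at pH 6.6 with IL-2 (median -0.84), led by Magt1 (-2.004, SE 0.10), Rpn1 (-1.88, SE 0.07) and Ddost (-1.56, SE 0.08). At pH 7.4 all 12 were higher with IL-2 than without it, against 39.3% of all genes. Of 29 glycan processing and further folding enzymes, 22 were lower and 4 higher (median -0.55), with Pdia5 (-2.38), Fkbp2 (-2.26) and Kdelr3 (-1.76) furthest. Of 14 signal recognition particle and other translocation factors, 5 were lower and 3 higher (median -0.10), with Bcap31 (-0.97), Sil1 (-0.91) and Sec62 (0.67) furthest, and these counts are at or below the background.

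The shares called among degradation factors and regulators were near those over all genes. Of 20 further ER-associated degradation factors, 8 were lower and 7 higher at pH 6.6 with IL-2 (median 0.09), with Derl3 (-3.55, SE 0.48), Dnajb14 (1.58) and Selenos (-1.46) furthest. Of 17 other regulators of the unfolded protein response, 7 were lower and 8 higher (median 0.08). Those furthest were Ddit3 (1.77, SE 0.16), the transcription factor CHOP of the PERK branch, Creb3l2 (1.72), an ER-bound transcription factor, and Ppp1r15a (1.51, SE 0.22), the phosphatase subunit GADD34 that reverses the phosphorylation of eIF2α. These genes were higher while Hspa5, Calr and Pdia6 were lower in the same libraries. Without IL-2, Ppp1r15a rose by 1.46 and Creb3l2 by 1.03, and Ddit3 was at 0.26, which did not pass the threshold (adjusted p = 0.110). The study also assessed phosphorylation of eIF2α, a measure of protein rather than RNA, and reported no notable difference at low pH.

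Other properties of the libraries also differed between the groups. Reads outside annotated genes made up 3.91% to 5.18% of the tabulated reads at pH 7.4 with IL-2, 7.70% to 10.2% at pH 7.4 without it, 7.34% to 8.83% at pH 6.6 with IL-2 and 6.47% to 9.19% at pH 6.6 without it. The summed level of the 8 myeloid markers was 5.43 to 11.3 CPM at pH 7.4 with IL-2 and 16.7 to 31.6 CPM at pH 6.6 with IL-2, nearly all of it Cd68, while Lyz2, Csf1r, Adgre1 and S100a8 were at or near 0 throughout. The 9 B and plasma cell markers summed to 16.4 to 22.3 CPM and 16.4 to 21.7 CPM in these groups and to 9.59 to 13.1 CPM at pH 7.4 without IL-2. The NK list, in effect Klrb1c, was at 43.0 to 45.8 CPM and 19.3 to 33.2 CPM at pH 7.4 and pH 6.6 with IL-2. The part of these differences in the levels of the ER genes was not tested.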

How the data were processed

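CD8+ T cells of OT-I mice were profiled by RNA-seq in 35 libraries of 7 groups. Libraries were made with a stranded mRNA kit and read from one end on a HiSeq sequencer. For each library, the authors deposited a table of raw counts per gene, without normalization. The submitters' processing notes list cutadapt 1.8, STAR 2.5.2b, HTSeq 0.6.1 and GRCm38. The strand setting of the counting is not given in the sources used here, so reads of overlapping genes may not be separated. Of the tabulated reads, a median of 37.1% had aligned to several places, 7.42% lay outside genes and 0.922% overlapped several genes. These rows were left out, and genes with near-identical copies can therefore have counts that are too low.

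Symbols, coordinates and exon lengths came from GENCODE M21, which matched 48349 of 48709 identifiers. Promoter windows were those of RefSeq (GRCm38.p6), and protein sequences were not used here. In R 4.3.3, edgeR 4.0.16 kept 13819 genes (filterByExpr, minimum count 10) and scaled them by TMM. A single quasi-likelihood fit with robust dispersions covered the 35 libraries, with the replicate number as a block, since the study's statistics are paired. Deviations of same-numbered libraries correlated above 0.1 in 95 of 105 pairs, and at 0.198 to 0.416 where pH 7.4 and pH 6.6 were paired in IL-2. The common biological coefficient of variation was 0.120. The threshold was a Benjamini-Hochberg adjusted p of 0.05 over all genes, and 11 contrasts were tested. CPM values are TMM-scaled. The code was run on simulated counts in which few genes changed, in a single group, with the same dispersion for every gene and no replicate effect. These data differ from that setting, so the run checks the code and not the model. Within groups, 70 pairs of libraries were compared and none was a duplicate (lowest chi-square per degree of freedom 6.38). The labels number the replicates but do not say that they came from separate mice. The p-values therefore measure the spread between these libraries that is left after the replicate block. Alternatives were RLE and upper-quartile scaling, DESeq2 1.42.0, other filters, fits to the compared groups, no block, and leaving out each replicate.

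The 37 genes, the role groups and the related lists were chosen with earlier results of these data known. All 37 are named. Values in every library are given for Hspa5, Xbp1, Atf6, Ern1 and, in each role group, the 2 genes with the largest absolute difference at pH 6.6 relative to pH 7.4 in IL-2, and those of Sdf2 in part. In related lists, the 3 genes with the largest difference past the threshold are named.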

Additional observations from a re-analysis of the deposited data

Results flagged for a closer look

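Whether IL-2 was present altered the difference at pH 6.6, by the interaction test in edgeR's quasi-likelihood model with Benjamini-Hochberg adjustment, in 34 of the 37 ER genes. Of all genes tested, 67.0% passed the same test, 34.3% positive and 32.8% negative. The interaction is the log2 fold change of pH 6.6 over pH 7.4 with IL-2 minus that without IL-2. Among the chaperones it was -2.49 for Sdf2l1, -2.44 for Hsp90b1, -2.42 for Hspa5, -2.22 for Hyou1, -2.01 for Creld2, -1.94 for Manf, -1.48 for Dnajb11 and -0.27 for Dnajc3, and it was positive for Dnajb9 (0.45) and Sdf2 (0.64). The lectins were at -2.46 for Calr and -1.77 for Canx, and the isomerases at -2.29 for Pdia6, -1.74 for Pdia4, -1.68 for P4hb and -1.55 for Pdia3. Ern1 was at 1.18, Xbp1 at -1.27 and Atf6 at -0.43. The translocation genes gave -1.64 for Ssr1, -1.48 for Ssr2, -1.04 for Sec61a1, -0.90 for Sec61b, -0.88 for Ssr4 and -0.86 for Ssr3. Signal peptidase gave -1.31 for Spcs3, -1.04 for Spcs2, -0.83 for Spcs1 and -0.35 for Sec11c. The degradation genes gave -0.90 for Herpud1, -0.47 for Syvn1, -0.36 for Edem2, -0.30 for Derl1 and -0.26 for Derl2.

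Single libraries stood apart from the other 4 of their group in 4 of the 259 combinations of gene and group tested, and chance gives about 1 in 20. Manf was at 206 CPM in replicate 5 at 0 h, against 121 to 140.0 CPM in the others, and at 47.7 CPM in replicate 4 at pH 6.6 without IL-2, against 36.7 to 39.2 CPM. Atf6 was at 43.2 CPM in replicate 2 at pH 7.4 without IL-2, against 45.3 to 46.0 CPM. Ern1 was at 76.2 CPM in replicate 2 at pH 6.6 with IL-2, against 55.1 to 60.3 CPM.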

How the results depend on the processing

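With differences under 1 on the log2 scale set aside, 16 ER genes were left for pH 6.6 with IL-2, 0 for pH 7 with IL-2, 4 for pH 6.6 without IL-2, 18, 17 and 1 for IL-2 at pH 7.4, pH 7 and pH 6.6, 1, 16 and 8 for the comparisons of pH 7.4 with IL-2, pH 7.4 without IL-2 and pH 6.6 with IL-2 with 0 h, and 20 for the interaction. The shares of all genes left by the same condition are given with these counts in the Results. Upper-quartile scaling changed the median of the ER genes to 0.19 for pH 6.6 without IL-2, to 0.73, 0.53 and 0.038 for IL-2 at pH 7.4, pH 7 and pH 6.6, to 0.16 for pH 7.4 with IL-2 against 0 h, and to -0.78 for the interaction, and shifted the median of all genes by nearly the same amounts. Under it, Sel1l, Derl1 and Derl2 came to -0.16, -0.066 and -0.060 for IL-2 at pH 7.4, and Derl1 and Derl2 to -0.15 and -0.036 at pH 7. For IL-2 at pH 6.6, 7 genes were called by DESeq2 and 14 in a fit to the compared groups. The median in that fit was 0.042. With 1 replicate left out, the comparison at pH 6.6 gave 4 to 6 genes (15.3% to 19% of all genes) and medians from -0.018 to 0.046. Leaving out 1 replicate gave 15 to 22 genes at pH 7 with IL-2 (9.24% to 17.6% of all genes), the lowest without replicate 3, and medians from 0.63 to 0.75 for IL-2 at pH 7. Without the replicate block, 29, 18, 24 and 0 genes were called for pH 6.6 with IL-2, pH 7 with IL-2, pH 6.6 without IL-2 and pH 7 without IL-2 (73%, 12%, 62.2% and 0.405% of all genes). For IL-2 at pH 7.4, pH 7 and pH 6.6 the counts were 35, 33 and 4 (77.8%, 74.3% and 17.5%). Against 0 h they were 29, 30 and 30 (54.8%, 72.1% and 65.1%), and for the interaction 32 (63%). Each count was within 1.5 times the count with the block. Of the values of single genes, 198 lost and 83 gained the threshold under an alternative, 5 changed sign while passing the threshold in 1 or both fits (the values of Sel1l, Derl1 and Derl2 given above), 4709 kept their side of it, and 89 of these changed sign while passing in neither fit. The cause of these changes was not tested. Counts near or below 1 CPM limit Sec61g.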
